A study of Mus musculus with 13 samples.

Results

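The metallothioneins Mt1 and Mt2, the zinc-sensing transcription factor Mtf1 and 5 transporters of zinc and manganese (Slc39a14, Slc39a10, Slc39a4, Slc30a1 and Slc30a10) were followed in bulk RNA-seq of whole mouse liver. The 8 genes were taken by symbol from a table of 22048 genes, and all 8 passed the filter on low counts that kept 13831. They were chosen by their CPM levels and log2 fold changes between the groups of this series, so their group differences are given as descriptions, without p-values. The livers formed 3 groups: 6 controls not depleted of hepatic stellate cells (3 male, 3 female), 4 livers depleted of these cells (1 male, 3 female) and 3 undepleted livers collected 72 h after partial hepatectomy (2 male, 1 female). Stellate cells lie along the liver sinusoid and store retinoids, and partial hepatectomy removes part of the liver so that the remnant regrows. The labels used here give no strain, age, way of depletion or sham operation, and call the tissue whole liver in every group. Nothing in them says that replicates came from separate animals, so p-values measure the spread between these samples.

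Library totals ran from 35360991 to 51008737 counts, at which 3 counts correspond to 0.0588 to 0.0848 CPM (the share of a library's counts, scaled to a fixed total). Among markers of whole liver, 7 hepatocyte genes summed to between 71347 and 184134 CPM in every library. Most of this sum was Alb, at 39689 to 143526 CPM. Fgb, also counted in it, averaged 4838 CPM in controls and 15228 CPM after hepatectomy. The 10 stellate cell markers summed to between 300.6 and 789.0 CPM in controls and to 15.5, 15.5, 19.0 and 74.0 CPM in depleted replicates 1 to 4. Depleted replicate 4 therefore kept more of this signal than the other 3. The sum of 9 neutrophil and monocyte markers was 3.09 to 13.1 CPM in controls, 207.5 to 526.9 CPM in depleted livers and 22.1 to 40.2 CPM after hepatectomy. The sum of 6 Kupffer cell markers was 52.2 to 464.9 CPM in controls, 569.6 to 1288.4 CPM in depleted livers, where Marco, Timd4 and Adgre1 rose, and 58.3 to 677.2 CPM after hepatectomy. Clec4f, of the same list, went the other way without passing, at 0.236, 2.17, 3.44 and 69.5 CPM in depleted livers against 20.3 to 164.6 CPM in controls. The part of these cell types in the levels of the members was not tested. In whole tissue, more cells of a type and more RNA per cell cannot be told apart.

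Metallothioneins are small cysteine-rich proteins that bind zinc and copper. In hepatocytes their genes are switched on by zinc through MTF1, which binds metal response elements near the start of its targets, and also by glucocorticoids and by interleukin-6 during the acute phase response. ZIP proteins (Slc39a genes) move metal ions into the cytosol, from outside the cell or from organelles, and ZnT proteins (Slc30a genes) move them out of it.

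The stretches before the annotated starts of Mt1, Mt2, Slc30a1 and Slc30a10 are shown because they are the members with matches to the core of the metal response element. The search took TGCACNC and TGCGCNC, where N is any base, on both strands of RefSeq windows (GRCm38.p6) reaching from 250 bases before to 50 bases after the start. Windows were found for 6 of the 8 members. Each line gives the 250 bases before the start, 5′ to 3′ on the gene's strand, with matches in capitals (a match on the opposite strand appears as its reverse complement, and the 2 matches of Slc30a10 at its far end overlap).
Mt1 (chr8:94178839-94179088, + strand): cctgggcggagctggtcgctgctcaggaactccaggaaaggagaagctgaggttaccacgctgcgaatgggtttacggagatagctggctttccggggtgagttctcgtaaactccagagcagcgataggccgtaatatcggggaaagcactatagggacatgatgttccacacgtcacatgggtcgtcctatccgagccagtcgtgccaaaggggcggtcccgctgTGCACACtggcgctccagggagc
Mt2 (chr8:94172368-94172617, + strand): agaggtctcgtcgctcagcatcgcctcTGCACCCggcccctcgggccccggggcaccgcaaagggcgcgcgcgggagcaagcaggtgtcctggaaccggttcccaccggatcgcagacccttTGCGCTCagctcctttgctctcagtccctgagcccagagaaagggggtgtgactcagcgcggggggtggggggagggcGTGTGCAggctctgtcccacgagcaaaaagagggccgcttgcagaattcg
Slc30a1 (chr1:191906531-191906780, + strand): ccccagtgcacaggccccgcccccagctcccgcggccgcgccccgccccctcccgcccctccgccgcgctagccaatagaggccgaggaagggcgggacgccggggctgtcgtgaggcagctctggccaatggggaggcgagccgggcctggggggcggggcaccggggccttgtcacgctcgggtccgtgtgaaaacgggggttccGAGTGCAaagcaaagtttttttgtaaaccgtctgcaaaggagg
Slc30a10 (chr1:185454598-185454847, + strand): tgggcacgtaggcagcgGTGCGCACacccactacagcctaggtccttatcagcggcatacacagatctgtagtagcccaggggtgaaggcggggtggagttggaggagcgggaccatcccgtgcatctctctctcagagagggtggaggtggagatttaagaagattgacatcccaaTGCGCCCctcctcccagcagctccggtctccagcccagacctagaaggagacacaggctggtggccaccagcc

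Over the whole window Mt2 had 4 matches, Mt1 and Slc30a10 had 3 each and Slc30a1 had 2. At least 4 matches occurred in 0.517% of 32851 windows of the same length, at least 3 in 1.97%, at least 2 in 7.11% and at least 1 in 25.7%. In Mt1, 2 of the matches lay just past the annotated start, at positions 3 to 9 and 21 to 27. The counts depend on where RefSeq places the start, and sequence more than 50 bases past it was not searched, so the Mt1 count may be incomplete. Mtf1 and the 2 windows of Slc39a10 had 0 matches, which says only that these letters do not occur there. A match is a description of the sequence and not a measured binding site.

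**Figure D1:**
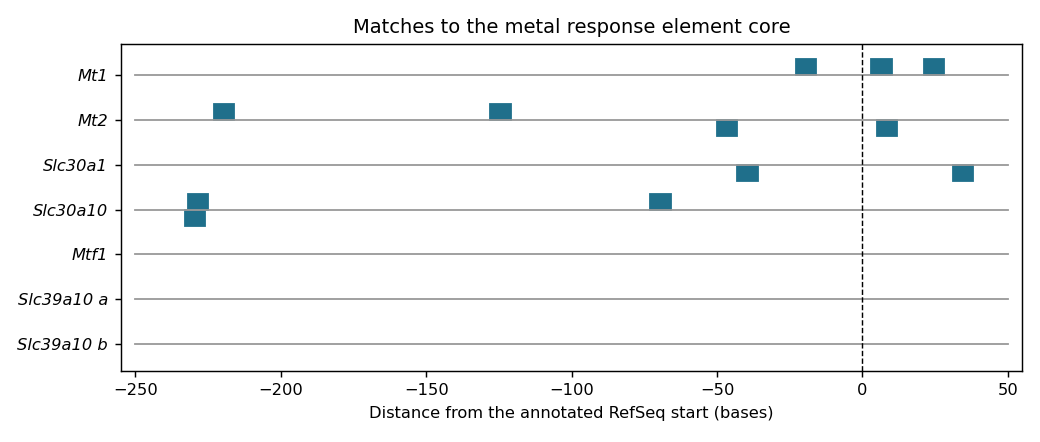
Matches to the metal response element core in RefSeq windows of 6 members, by distance from the annotated start in bases (dashed line), with boxes above a line for the gene's strand and below it for the opposite strand (a and b are the 2 starts of Slc39a10). Mt2 has 4 boxes, Mt1 and Slc30a10 have 3, Slc30a1 has 2 and the others have none.

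Both metallothioneins were at low levels in 5 of the 6 controls and at high levels in every depleted and every hepatectomised liver. Mt1 (ENSMUSG00000031765, chromosome 8, 94179082 to 94180327, GRCm38) ranged from 14.4 to 243.4 CPM in controls, with a median of 30.1 CPM. It stood at 636.5, 494.7, 1100.0 and 1039.2 CPM in depleted replicates 1 to 4 and at 1019.5, 2051.6 and 1925.8 CPM in hepatectomised replicates 1 to 3. Neither group overlapped the controls, and the lowest depleted liver was above the highest control. The model, which holds group and sex, gave Mt1 a log2 fold change of 3.91 ± 0.70 (SE) in depleted and 5.20 ± 0.79 (SE) in hepatectomised livers, or 15.01 and 36.8 times control.

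Mt2 (ENSMUSG00000031762, chromosome 8, 94172664 to 94173568) lies beside Mt1 and had the larger differences. Its controls ranged from 2.20 to 129.4 CPM with a median of 7.74 CPM. Depleted replicates 1 to 4 had 579.0, 415.6, 1331.2 and 896.4 CPM, and hepatectomised replicates 1 to 3 had 1028.9, 2335.1 and 2133.2 CPM. Again no depleted or hepatectomised liver overlapped a control. The log2 fold changes were 5.26 ± 1.03 (SE) and 6.66 ± 1.14 (SE), or 38.4 and 101.0 times control. In TPM, which corrects for gene length, Mt2 ranked between 219 and 6091 of all genes in controls. It ranked between 20 and 63 in depleted livers and between 20 and 43 after hepatectomy.

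**Figure D2:**
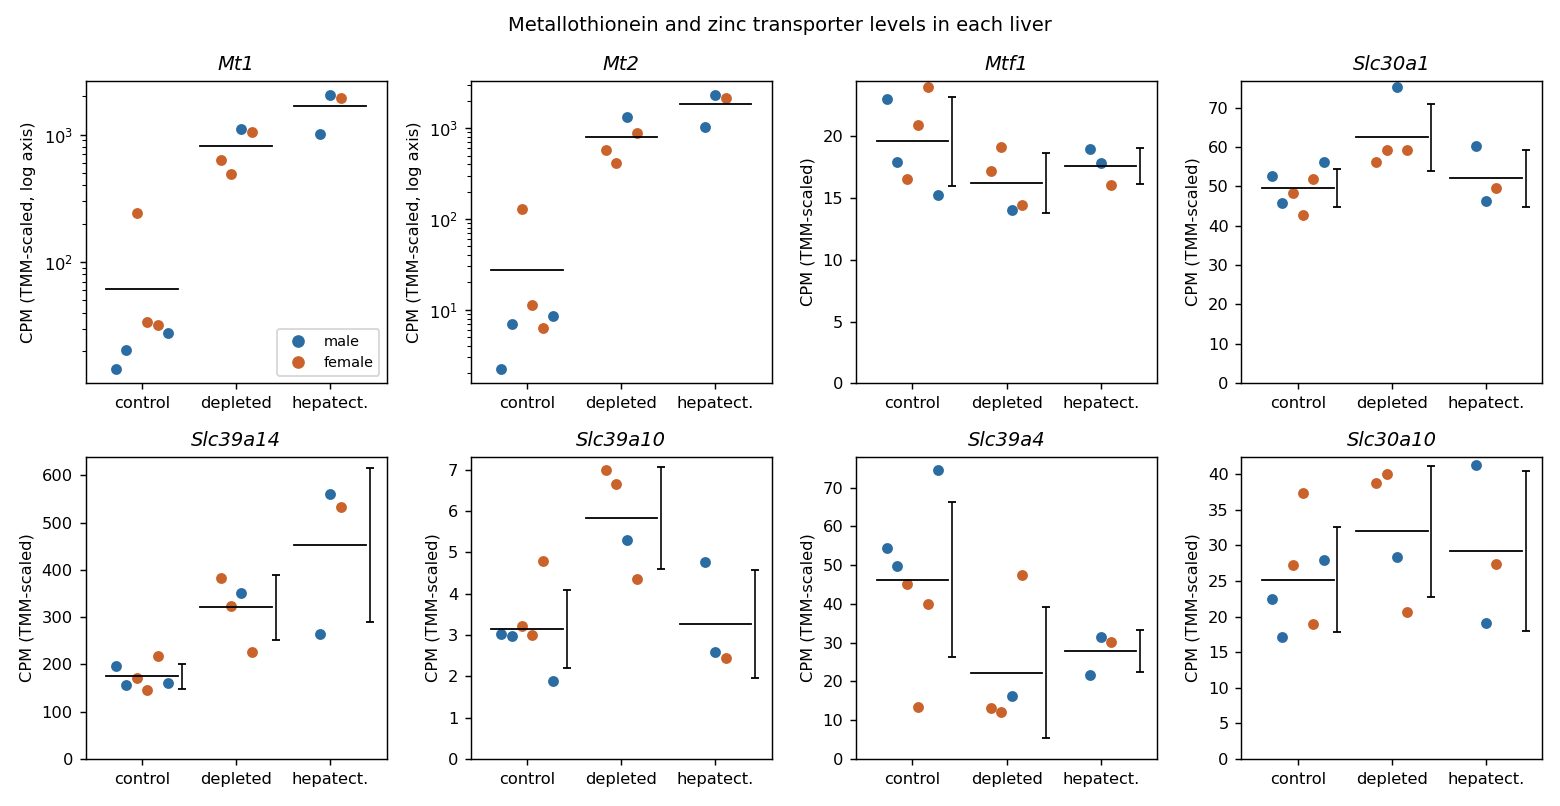
TMM-scaled CPM of the 8 genes in each liver (points, male blue and female orange), with group means as lines and SD as bars beside them where the axis is linear; Mt1 and Mt2 are on log axes. For Mt1 and Mt2 the 4 depleted and 3 hepatectomised livers lie above all 6 controls, including control replicate 3 at 243.4 and 129.4 CPM.

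Control replicate 3, a female, stood apart from the other controls in both genes, at 243.4 CPM of Mt1 against 14.4 to 33.6 CPM in the rest and 129.4 CPM of Mt2 against 2.20 to 11.4 CPM. The 10 acute phase genes summed to 9008 CPM there, within a control range of 7092 to 10917 CPM, although Itih4 and Fgg were at their highest among controls. Saa1 (serum amyloid A) was at 28.1 CPM within a control range of 10.8 to 310.2 CPM and Lcn2 (lipocalin 2) at 7.22 CPM within 3.001 to 16.9 CPM. Fkbp5, a glucocorticoid-induced gene, was highest among controls in this liver, at 52.2 CPM against 15.04 to 35.04 CPM in the others. Sgk1 and the receptor gene Nr3c1, of the same list, were highest by little, at 24.7 and 126.5 CPM against 23.4 and 122.0 CPM in control replicate 5. Zbtb16 and Dusp1 were low, at 3.99 and 9.89 CPM within control ranges of 1.92 to 22.5 and 8.20 to 31.8 CPM. The remaining genes of the list lay inside their control ranges. The 9 genes together summed to 3895 CPM, within a control range of 2050.3 to 4218 CPM, and Tat and Pck1 made up most of that sum. The neutrophil and monocyte marker sum was above all controls in the same 7 livers in which Mt1 and Mt2 were. Control replicate 3 also had the highest hepatocyte and Kupffer marker sums of the controls, at 144103 and 464.9 CPM. The genes named here were picked after their values were seen, and the part of these genes and markers in the metallothionein level was not tested. Without control replicate 3 the log2 fold changes of Mt1 became 4.96 and 6.04, and those of Mt2 became 6.83 and 8.01, in depleted and hepatectomised livers. Depleted replicate 3, the only male of its group, also weighed on the sizes. Without it, Mt1 and Mt2 in depleted livers changed to 3.05 and 3.98, and Mt2 in hepatectomised livers to 7.35.

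The balance between the 2 metallothioneins also differed. Per base of exon, Mt2 carried 0.148 to 0.517 times the reads of Mt1 in controls, with a mean of 0.302 ± 0.129 (SD, n = 6). The ratio was 0.883, 0.816, 1.175 and 0.838 in depleted replicates 1 to 4 (0.928 ± 0.167, SD, n = 4) and 0.980, 1.105 and 1.076 in hepatectomised replicates 1 to 3 (1.054 ± 0.065, SD, n = 3). Every control was thus below every other liver, and control replicate 3 had the highest ratio of the controls as well as the highest sum of Mt1 and Mt2. The longest stretch shared without mismatch by annotated transcripts of the 2 genes was 20 bases. Whether reads of one gene were counted for the other was not tested. This ratio comes from the same group differences as the choice of genes and is given without a test.

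**Figure D3:**
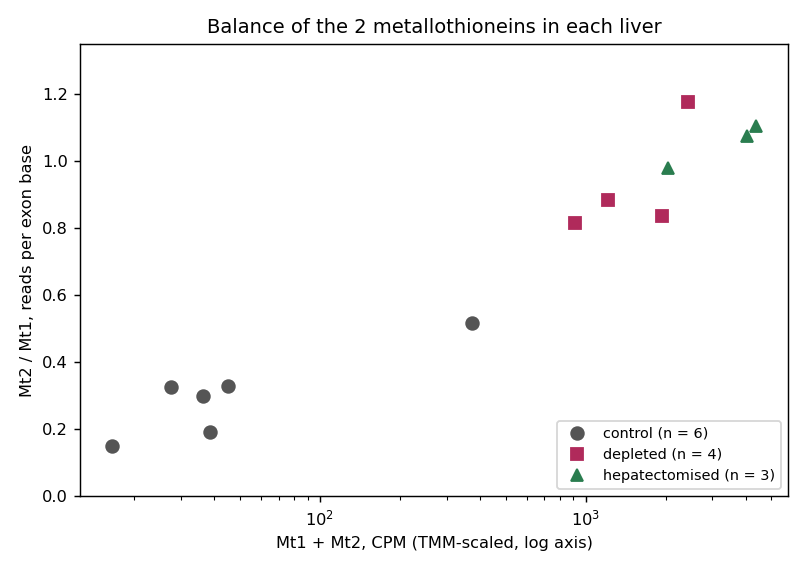
Ratio of Mt2 to Mt1 reads per exon base against the summed CPM of the 2 genes (log axis) in 13 livers, by group. Controls lie between 0.148 and 0.517 and the depleted and hepatectomised livers between 0.816 and 1.175.

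Mtf1 and Slc30a1 showed small differences beside these. Mtf1 (ENSMUSG00000028890, chromosome 4, 124802104 to 124849800) had a median of 19.4 CPM in controls, within 15.2 to 24.0 CPM. It had 17.2, 19.2, 14.03 and 14.5 CPM in depleted and 19.0, 17.9 and 16.1 CPM in hepatectomised livers, and the groups overlapped. Its log2 fold changes were -0.30 ± 0.16 (SE) and -0.13 ± 0.17 (SE). The latter was -0.35 with library size alone and 0.01 without hepatectomised replicate 3. Slc30a1 (ENSMUSG00000037434, chromosome 1, 191906767 to 191913247) encodes ZnT1, the zinc exporter of the plasma membrane and a textbook target of MTF1. It was at 42.8 to 56.2 CPM in controls, with a median of 50.1 CPM, and at 56.3, 59.3, 75.1 and 59.1 CPM in depleted livers. The lowest depleted liver lay only just above the highest control. After hepatectomy it had 60.1, 46.3 and 49.6 CPM, around the control range. The log2 fold changes were 0.37 ± 0.11 (SE) in depleted and 0.04 ± 0.12 (SE) in hepatectomised livers, the latter -0.18 with scaling to library size alone.

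Slc39a14 encodes ZIP14, an importer of zinc, manganese and non-transferrin iron that is known as an interleukin-6 target in hepatocytes. Slc39a14 (ENSMUSG00000022094, chromosome 14, 70303469 to 70351425) ranged from 145.3 to 216.8 CPM in controls with a median of 166.0 CPM. Depleted replicates 1 to 4 had 383.8, 322.9, 351.1 and 225.7 CPM, and hepatectomised replicates 1 to 3 had 264.3, 560.0 and 533.3 CPM. Both groups lay above all controls, with depleted replicate 4 and hepatectomised replicate 1 closest to them. The log2 fold changes were 0.86 ± 0.22 (SE) and 1.38 ± 0.23 (SE), or 1.82 and 2.605 times control. Per length, Slc39a14 was the most abundant of the 5 transporters on average in depleted and hepatectomised livers, at 79.7 ± 17.8 TPM (SD, n = 4) and 82.6 ± 31.9 TPM (SD, n = 3), whereas in controls its 38.9 ± 7.45 TPM (SD, n = 6) lay within the spread of Slc39a4 at 47.1 ± 16.9 TPM.

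Slc39a10 encodes ZIP10, a plasma membrane importer that MTF1 is known to repress. It was the least abundant member (ENSMUSG00000025986, chromosome 1, 46807544 to 46892852), at 1.23 ± 0.43 TPM (SD, n = 6) in controls. In CPM its controls ranged from 1.89 to 4.80 with a median of 3.01. Depleted livers had 7.005, 6.65, 5.31 and 4.34 CPM, so that replicate 4 fell within the control range, and hepatectomised livers had 4.76, 2.58 and 2.44 CPM. The log2 fold change was 0.85 ± 0.28 (SE) in depleted and 0.10 ± 0.31 (SE) in hepatectomised livers, and the latter turned to -0.12 with library size alone, to -0.30 without hepatectomised replicate 1 and to 0.44 without replicate 3.

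Slc39a4 encodes ZIP4, the importer through which the intestine absorbs dietary zinc. Slc39a4 (ENSMUSG00000063354, chromosome 15, 76612383 to 76617384) was at 54.4, 49.8, 45.2, 13.3, 40.0 and 74.5 CPM in control replicates 1 to 6. It was at 13.2, 12.2 and 16.2 CPM in depleted replicates 1 to 3 but at 47.4 CPM in depleted replicate 4, and at 21.6, 31.6 and 30.2 CPM after hepatectomy. Control replicate 4 thus had a level like the 3 low depleted livers, and depleted replicate 4 a level like the other controls. The log2 fold changes were -0.93 ± 0.50 (SE) and -0.73 ± 0.51 (SE). Without depleted replicate 4, the liver with the most stellate cell signal of its group, the change in depleted livers was -1.61, without control replicate 4 it was -1.24, and without depleted replicate 3 it was -0.61. Of the pancreatic and intestinal markers, Cpa1, Cpb1, Pnlip, Cel, Cela3b and Sis had 0 counts in all 13 libraries, and Prss2, Ctrb1 and Lct had at most 2. Others of these lists were detected, and some moved. Cela1 fell from 33.6 ± 22.3 to 7.02 ± 3.20 CPM in depleted livers, by 1.95 on the log2 scale, and Fabp2 fell there by 1.01. Apoa4 rose from 123.1 ± 45.2 to 305.1 ± 37.7 CPM in depleted and 1081.0 ± 797.0 CPM in hepatectomised livers. The part of such cells in the Slc39a4 level was not tested.

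Slc30a10 encodes ZnT10, which exports manganese. Slc30a10 (ENSMUSG00000026614, chromosome 1, 185454848 to 185468762) varied within each group, from 17.1 to 37.4 CPM in controls, with a median of 24.8 CPM. The 4 depleted livers had 38.8, 40.1, 28.3 and 20.7 CPM and the 3 hepatectomised livers 41.2, 19.0 and 27.4 CPM. Of these, depleted replicates 1 and 2 and hepatectomised replicate 1 were above all controls and the others within their range. Its log2 fold changes of 0.30 ± 0.27 (SE) and 0.26 ± 0.30 (SE) were about the size of their errors. The hepatectomised value was 0.04 with library size alone and -0.13 without hepatectomised replicate 1. Without hepatectomised replicate 2 or 3 it was 0.47 or 0.42.

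**Figure D4:**
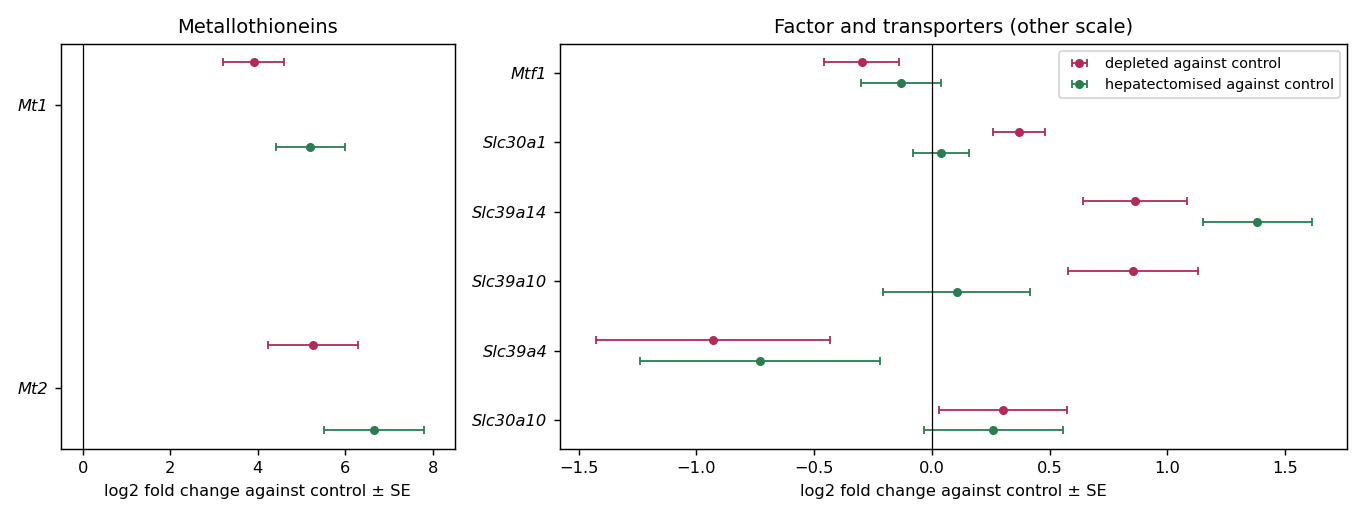
Log2 fold change against control ± SE of each member in 4 depleted and 3 hepatectomised livers, from the model of group and sex; the metallothioneins are on a wider scale than the other 6 genes. Mt1 and Mt2 lie at 3.91 and more, Slc39a14 at 0.86 and 1.38, and the remaining 5 genes within 0.93 of 0.

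Set against all genes, the number of members past an adjusted p of 0.05 by edgeR's quasi-likelihood test was 5 of 8 in depleted livers (Mt1, Mt2, Slc39a14, Slc39a10 and Slc30a1, all higher), where 33.9% of all genes passed (18.9% higher and 15% lower). It was 3 of 8 after hepatectomy (Mt1, Mt2 and Slc39a14, all higher), where 8.42% of all genes passed (6.06% higher and 2.36% lower). With the replicate number as a block the same members passed, while the count over all genes after hepatectomy went from 1164 to 632. Libraries of 4 members did not overlap the controls in depleted livers, against 28.4% of all genes, and those of 3 members after hepatectomy, against 13.7%. Because these contrasts were in view when the genes were chosen, nothing is read from the counts. The median log2 fold change of the members was 0.61 in depleted and 0.18 in hepatectomised livers, against -0.03 and -0.02 for all genes tested. Both comparisons share the same 6 controls. Leaving out depleted replicate 3 took Slc39a14 and Slc30a1 below the threshold in depleted livers, and Slc39a10 kept it in 7 of the 13 fits that left out 1 library, not without control replicate 2, 3 or 4 or depleted replicate 1, 2 or 3.

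Between depleted and hepatectomised livers, which share no library, 0 of the 8 members passed the threshold by edgeR's quasi-likelihood test (1 at an unadjusted p under 0.05), where 23.4% of all genes did, 13.3% higher and 10.1% lower. DESeq2 called 0 of the 6 members for which it gave an adjusted p. This contrast, too, was in view when the genes were chosen, so nothing is read from the counts of members here. The log2 differences, as depleted minus hepatectomised, were -1.29 ± 0.80 (SE) for Mt1, -1.39 ± 1.08 (SE) for Mt2 and -0.52 ± 0.26 (SE) for Slc39a14. They were 0.75 ± 0.36 (SE) for Slc39a10 and 0.33 ± 0.13 (SE) for Slc30a1, and between -0.20 and 0.04 for the other 3 genes. With library size alone, Slc39a14 stood at -0.20, Slc30a1 at 0.66 and Slc30a10 at 0.34, and Mtf1 and Slc39a4 changed sign, to 0.15 and 0.17. The ranges of all 8 members overlapped between these groups, where those of 34% of all genes did not. Without depleted replicate 3 the differences of Mt1 and Mt2 were -2.52 and -3.37, and without hepatectomised replicate 2 both were -0.86. Slc39a14 moved to -0.32 without hepatectomised replicate 2, and Slc39a10 to 0.37 without replicate 3 and 1.13 without replicate 1. Slc39a4 was -0.88 without depleted replicate 4, and its sign changed without depleted replicate 3 or hepatectomised replicate 3.

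The difference between the sexes played no part in the choice of the genes and was tested in the same model. None of the 8 members differed between 6 male and 7 female livers by edgeR's quasi-likelihood test (0 at an unadjusted p under 0.05, and 0 by DESeq2, which gave no adjusted p for Mt1 and Mt2), where 1.03% of all genes did. The estimates farthest from 0, male minus female on the log2 scale, were -1.11 ± 0.90 (SE) for Mt2 and -0.98 ± 0.63 (SE) for Mt1, with edgeR adjusted p-values of 0.644 and 0.556. Those of the other 6 members lay between -0.19 and 0.28. Within the controls, the 3 females had 32.3 to 243.4 CPM of Mt1 and the 3 males 14.4 to 27.8 CPM, whereas Mt2 overlapped between them. The estimates moved with single libraries, to 0.00 for Mt2 and -0.19 for Mt1 without control replicate 3, and to -2.38 and -1.78 without depleted replicate 3. Without control replicate 1 that of Mt2 was -0.68. Over the 6 controls alone they were -3.05 and -2.30, with edgeR adjusted p-values of 0.411 and 0.389.

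Of 19 other zinc transporters, 16 passed the filter, and 1 rose and 4 fell in depleted livers, where 18.9% of all genes were higher and 15% lower, with a median log2 fold change of -0.18 against -0.03 for all genes. Slc39a6, which encodes ZIP6 of the plasma membrane, had 1.97 ± 0.49 CPM (SD, n = 6) in controls and rose by 1.42 ± 0.22 on the log2 scale (SE, edgeR adjusted p = 0.000418) to 5.43 ± 1.29 CPM (SD, n = 4). Slc39a8, which encodes ZIP8, the close relative of ZIP14 that also carries manganese, fell from 35.2 ± 5.66 to 21.9 ± 4.49 CPM, by -0.78 ± 0.14 (SE, edgeR adjusted p = 0.00114). Slc39a14 and Slc39a8 thus differed in direction, and the depleted livers lay wholly outside the control range for each. Slc39a9 fell by 0.50 on the log2 scale, Slc30a6 by 0.47 and Slc30a3 by 2.01, the last from 0.748 to 0.188 CPM on average. Slc30a6 did not pass with the replicate block. Leaving out 1 library at a time, Slc30a6 passed in 8 of 13 fits, not without control replicate 3, 4 or 5 or depleted replicate 1 or 3. Slc30a3 also passed in 8 of 13, not without control replicate 1 or 4 or depleted replicate 1, 2 or 3.

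After hepatectomy 4 of the 16 passed edgeR's quasi-likelihood test, all higher, against 6.06% of all genes, with a median of 0.23. Slc39a1, which encodes ZIP1, rose from 67.2 ± 5.30 to 106.6 ± 17.2 CPM (SD, n = 3), by 0.65 ± 0.13 (SE, edgeR adjusted p = 0.0117), though not without hepatectomised replicate 2. Slc39a6 rose by 1.05 ± 0.25 (SE, edgeR adjusted p = 0.0215). Slc30a5, whose product loads zinc into the secretory pathway, rose by 0.72 ± 0.19 (SE, edgeR adjusted p = 0.033) and Slc30a3 by 2.13 ± 0.60 (SE, edgeR adjusted p = 0.0452). Of these 4 only Slc39a1 passed with the replicate block. Leaving out 1 library at a time, Slc39a6 passed in 10 of 13 fits (not without control replicate 1 or hepatectomised replicate 1 or 2), Slc30a5 in 7 and Slc30a3 in 3. Slc30a3 differed between depleted and hepatectomised livers by -4.14 ± 0.77 (SE, edgeR adjusted p = 0.00232), lower in depleted livers, although its highest library held only 4.66 CPM.

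**Figure D5:**
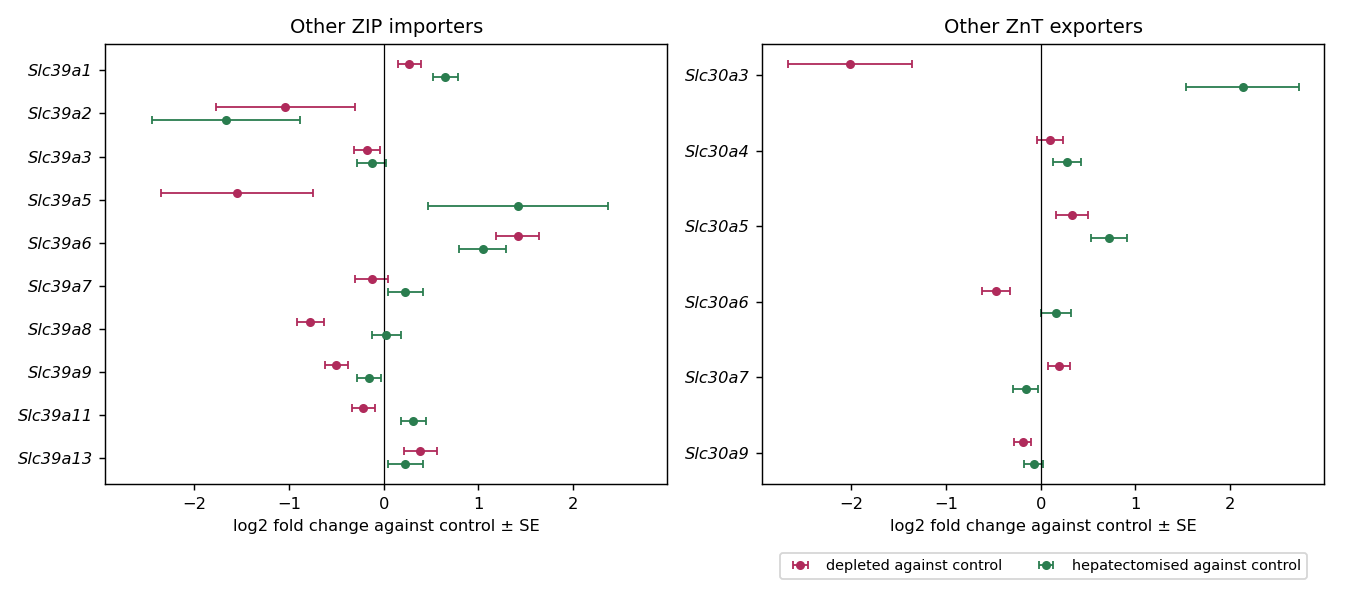
Log2 fold change against control ± SE of the 10 other ZIP and 6 other ZnT genes that passed the filter, in depleted and hepatectomised livers. Slc39a6 is higher in both, Slc39a8 and Slc39a9 are lower in depleted livers, and Slc30a3 lies at -2.01 in depleted and 2.13 in hepatectomised livers.

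The remaining metallothioneins of the mouse, Mt3 and Mt4, are known mainly from brain and squamous epithelium and did not pass the filter. Mt3 had 0 counts in all 6 controls, 5, 10, 20 and 3 counts in depleted replicates 1 to 4 and 4, 5 and 1 counts in hepatectomised replicates 1 to 3. Mt4 had at most 4 counts in any library.

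Of 6 other genes described as MTF1 targets, 2 rose and 2 fell in depleted livers, where 33.9% of all genes passed. Csrp1 rose by 1.36 ± 0.23 (SE, edgeR adjusted p = 0.000664) and Slc40a1, the iron exporter ferroportin, by 1.00 ± 0.26 (SE, edgeR adjusted p = 0.00955), the latter not passing with the replicate block, at 0.92. Gclc, the catalytic subunit of the first enzyme of glutathione synthesis, fell by 1.51 on the log2 scale (edgeR adjusted p = 0.000166), and Cebpa by 1.00 (edgeR adjusted p = 0.00247). In CPM, Csrp1 lay between 8.43 and 21.7 in controls. It lay between 28.8 and 50.97 in depleted and between 26.3 and 30.8 in hepatectomised livers, above the controls in all 7. Gclc and Cebpa lay below all controls in the same 7 livers. Of all genes, 28.4% did not overlap the controls in depleted livers and 13.7% did not in hepatectomised livers. Csrp1 did not pass after hepatectomy. After hepatectomy 1 of the 6 passed, against 8.42% of all genes, with Cebpa, a hepatocyte transcription factor, down from 357.9 ± 70.4 to 126.6 ± 19.5 CPM.

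Of 9 copper handling genes, 2 rose and 1 fell in depleted livers, a share near the 33.9% of all genes. The copper transporter gene Slc31a2 rose from 8.06 ± 0.73 to 28.4 ± 4.45 CPM, by 1.86 ± 0.19 (SE, edgeR adjusted p = 2.38e-05). Cp, which encodes the copper-carrying plasma protein ceruloplasmin, rose by 1.91 ± 0.21 (SE, edgeR adjusted p = 3.67e-05). Ccs, the chaperone that delivers copper to superoxide dismutase, fell from 182.1 ± 44.5 to 99.9 ± 14.1 CPM. After hepatectomy Cp rose by 0.91 ± 0.22 (SE, edgeR adjusted p = 0.0258) and Atp7b, the copper-exporting ATPase, fell by 0.61, neither of them passing with the replicate block. Leaving out 1 library at a time, Cp passed after hepatectomy in 8 of 13 fits and Atp7b in 2. Of 5 manganese handling genes, Tmem165 rose by 0.49 ± 0.17 (SE, edgeR adjusted p = 0.0442) in depleted livers (in 4 of 13 fits without 1 library, and not with the replicate block), Slc39a8 fell as above, and 0 passed after hepatectomy by edgeR's quasi-likelihood test or DESeq2 (1 by each at an unadjusted p under 0.05).

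Genes of the signals known to induce metallothioneins were tested beside them. Like the other lists, these were written with earlier results of these data known. Their p-values and shares are therefore no independent evidence. Of 9 genes of the glucocorticoid receptor and its targets, 5 passed in depleted livers, all higher, and 4 rose and 1 fell after hepatectomy, where 33.9% and 8.42% of all genes passed. Fkbp5, a chaperone partner of that receptor, rose from 32.0 ± 12.3 CPM in controls to 220.3 ± 117.2 CPM in depleted livers, by 2.79 ± 0.40 (SE, edgeR adjusted p = 0.000231), and to 207.8 ± 100.9 CPM after hepatectomy, by 2.74 ± 0.42 (SE, edgeR adjusted p = 0.00353). Pck1, Tsc22d3 and Dusp1 also rose in depleted livers, by 0.91, 1.32 and 2.54, as did Zbtb16, though not with the replicate block, while Nr3c1, the receptor itself, fell by 0.72 after hepatectomy. Of the hepatectomised rises, those of Pck1, Dusp1 and Zbtb16 did not pass with the replicate block. Without depleted replicate 3, Pck1 and Tsc22d3 no longer passed in depleted livers, nor did Tsc22d3 without replicate 2, and Nr3c1 did not pass after hepatectomy without any 1 of the 3 hepatectomised libraries. Of 10 acute phase genes, 9 rose in depleted and 10 in hepatectomised livers, a pattern already known when the list was written. Among 7 oxidative stress genes, 3 rose and 2 fell in depleted livers, against 33.9% of all genes, and 1 rose after hepatectomy, against 8.42%, with Hmox1 (heme oxygenase 1) up by 1.88 ± 0.23 (SE, edgeR adjusted p = 6.32e-05) in depleted and 1.56 ± 0.25 (SE, edgeR adjusted p = 0.00381) in hepatectomised livers, and Nqo1 by 0.86 ± 0.27 (SE, edgeR adjusted p = 0.0242) in depleted livers. Nqo1 passed neither with the replicate block nor without depleted replicate 3. Slc7a11, the cystine importer, rose from 2 counts over the 6 controls to between 6 and 70 counts in each depleted liver.

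Genes whose pattern over the 13 livers came nearest to the members were ranked by the root mean square difference of log2 CPM after centring each gene. The nearest to Mt2 were Mt1 at 0.99, Lcn2 at 1.41 and Prtn3, a neutrophil protease, at 1.44, where Mt2 itself had an SD of 3.74. Prtn3 averaged 17.4 CPM in depleted and 45.5 CPM in hepatectomised livers, whereas the neutrophil and monocyte marker sum was higher in depleted livers. The nearest to Mt1 were Mt2, then Orm2 (orosomucoid 2) at 1.06 and Gadd45b, a stress-induced gene, at 1.09. The nearest to Slc39a14 were Susd6 at 0.19, Stat3, the transcription factor that interleukin-6 activates, at 0.25 and Zfp36, which encodes an mRNA-decay factor, at 0.29, against an SD of 0.66 for Slc39a14. Stat3 stood at 98.6 ± 10.7 CPM (SD, n = 6) in controls, 173.2 ± 28.4 CPM (SD, n = 4) in depleted and 222.1 ± 62.5 CPM (SD, n = 3) in hepatectomised livers. These neighbours are a description of likeness over libraries that share the group differences.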

How the data were processed

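Whole-liver RNA was taken up in TRIzol and made into stranded mRNA libraries with the TruSeq chemistry, per the labels' protocols. The authors deposited raw read counts per gene with an exon length. The submitters' processing notes name STAR 2.7.1a, SAMtools 1.15.1, featureCounts 1.6.4 and mm10; strand and multi-mapping settings are not given in the sources used here. Of the gene IDs, 21741 matched GENCODE M21 (GRCm38), and 99.94% of these overlapped the same gene there. Counts were tested with edgeR 4.0.16 in R 4.3.3 (filterByExpr, TMM, glmQLFit, glmQLFTest) in a model of group and sex over all 13 libraries, with Benjamini-Hochberg adjustment, a threshold of 0.05 and two-sided tests. SE is the log2 fold change divided by the root of F. CPM is TMM-scaled except the floors, TPM used the deposited lengths, and a prior count of 2 entered log2 CPM. The fit was tested on simulated data. Alternatives were DESeq2 1.42.0, library size alone, no filter, no sex term, 2 groups only, a replicate block and leaving out each library. The labels give no batch, so a batch that followed the groups cannot be told apart from them. Floors cover counting error only. Replicate numbers come from descriptions or titles. In the 3 same-numbered pairs of control and hepatectomised livers, each of 1 sex, deviations from group means correlated across genes at 0.11 to 0.52, and at -0.19 to 0.08 once sex was removed. With sex removed, the 4 same-numbered pairs of control and depleted livers gave -0.10 to 0.42, the highest between replicates 3. The 3 of depleted and hepatectomised livers gave 0.04 to 0.27. The closest libraries within a group differed by a median chi-square per gene of 4.60, so none was counted as a duplicate. The members and lists were chosen with earlier results of these data known, so p-values of list genes are no independent evidence. Named genes are the members, at most 4 genes per list and comparison with the smallest adjusted p-values, and the 3 nearest patterns of Mt1, Mt2 and Slc39a14. Zbtb16 in depleted and Dusp1 in hepatectomised livers, Itih4, Sgk1, Tat and single markers of hepatocytes, Kupffer cells, pancreas and intestine were named after their values were seen. The result of 1 marker list is not reported here.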

Additional observations from a re-analysis of the deposited data

Results flagged for a closer look

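Among 16 sets of control or depleted livers tested for a single library far from the rest, 4 passed Dixon's critical value. Chance gives about 1 in 20 for independent sets, but the genes were chosen by their CPM levels and Mt1 and Mt2 mark the same liver, so nothing is read from the number. Mt1 in control replicate 3 stood at 243.4 CPM, with a gap to the next library of 0.916 of the range, and Mt2 in the same liver at 129.4 CPM, with a gap of 0.928. Slc39a4 in depleted replicate 4 stood at 47.4 CPM, a gap of 0.887. Slc30a1 in depleted replicate 3 stood at 75.1 CPM, a gap of 0.838, and this liver also had the highest Mt1 and Mt2 of its group, at 1100.0 and 1331.2 CPM. Depleted replicate 3 is also the only male of its group, so its sex and the animal cannot be told apart.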

How the results depend on the processing

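Of 456 values of the members' group differences under the alternatives run, 438 kept their sign and 450 moved by less than the spread between replicates. Because the members were chosen by these differences, counts of their calls describe the settings and are no evidence of stability. None reversed among members past the threshold. Of their 152 calls 140 were kept, 8 were lost (6 of Slc39a10, 1 each of Slc39a14 and Slc30a1, each in a fit without 1 library) and 4 had no adjusted p in DESeq2. The alternatives also gave 6 calls that the model of group and sex did not, of Slc39a4 in depleted livers and of Slc39a14, Slc39a10 and Slc30a1 between depleted and hepatectomised livers. The replicate block changed no member's call, but gave 632 genes after hepatectomy against 1164 without it and 72 between the sexes against 142. With library size alone 2192 genes differed after hepatectomy, 626 higher and 1566 lower, against 838 and 326, and the median of all genes moved to -0.24. In depleted against hepatectomised livers it moved to 0.27, with 3102 genes higher and 610 lower. DESeq2 called 1939 genes after hepatectomy and 410 between the sexes. A fit of 2 groups gave 2105 genes in depleted against hepatectomised livers against 3236. Leaving out 1 library gave 2960 to 4928 genes in depleted livers against 4692, 483 to 1458 after hepatectomy, 1709 to 3850 between these groups and 84 to 269 between the sexes. The lowest of these were without depleted replicate 3, hepatectomised replicate 2, depleted replicate 3 and control replicate 3, and the cause was not tested. Depth limits Mt3, Mt4 and Slc7a11, which had few counts.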
